A study of Mus musculus with 12 samples.

Results

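Gata2, Runx1, Tal1, Lmo2, Lyl1, Fli1, Erg, Meis1, Hlf and Mecom are 10 transcription factors of hematopoietic stem cells. They were taken by gene name from a table of 35999 genes, all 10 were present, and all 10 were among the 8887 genes tested, whose signal averaged 10 or more over the libraries. RNA-seq was performed on LSK cells, the bone marrow fraction without lineage markers but with KIT and Sca-1 on its surface, which holds stem cells and multipotent progenitors. The 12 libraries came from 12 mice, 6 labelled WT and 6 labelled KO, the latter being Fancg-/- mice, which lack a subunit of the Fanconi anemia core complex in all cells. Both genotypes carry the replicate numbers 2 to 7, and the strain, age and sex of the mice are not given in the sources used here. Whether Fancg-/- LSK cells held different amounts of these transcripts was the question asked of the data.

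Stem cell factors of this kind bind many of the same enhancers and promoters, including their own, and so form a network that holds cells in the stem cell state. TAL1 or LYL1 pairs with an E protein, and LMO2 and LDB1 bridge this pair to GATA2, while RUNX1, FLI1 and ERG occupy neighbouring sites. MEIS1, HLF and MECOM are highest in the most immature cells, and their loss costs stem cells the ability to repopulate the marrow.

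The promoters of Tal1 and Erg are shown, the factor pair with the second highest Pearson correlation below. A window of each carries the letters of a GATA motif, and the Erg window also carries those of an ETS motif. In the pair with the highest correlation, Erg and Mecom, the Mecom windows hold neither motif. A link between these motifs and the correlations was not tested. Each run is the 250 bases before a transcription start site, written 5′ to 3′ on the strand of the gene, from RefSeq on GRCm38.p6. Capitals mark the GATA motif AGATAA and the ETS motif AGGAAG, each on either strand. Tal1 has 1 other window and Erg 2 others, none of which holds either motif. The Tal1 window shown, chr4:115056176-115056425 on the plus strand, was intergenic, and the Erg window shown, chr16:95459349-95459598 on the minus strand, lay in an intron of longer Erg transcripts.
Tal1: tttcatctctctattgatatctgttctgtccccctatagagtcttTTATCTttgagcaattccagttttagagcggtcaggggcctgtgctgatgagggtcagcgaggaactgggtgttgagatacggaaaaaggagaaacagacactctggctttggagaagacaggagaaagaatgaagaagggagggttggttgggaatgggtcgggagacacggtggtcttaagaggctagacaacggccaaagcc
Erg: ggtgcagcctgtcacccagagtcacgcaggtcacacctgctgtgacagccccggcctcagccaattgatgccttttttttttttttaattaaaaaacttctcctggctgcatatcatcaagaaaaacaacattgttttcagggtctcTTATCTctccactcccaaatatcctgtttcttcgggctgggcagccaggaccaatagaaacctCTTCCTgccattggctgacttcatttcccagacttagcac
RefSeq windows were matched for 8 of the 10 factors, 14 windows in all, and none was matched for Lmo2 and Fli1. On both strands, the GATA letters were found in 2 of these 14 windows, and in 9.99% of 32851 windows of the same length. The ETS letters were found in 2 windows (29.5% of all windows), the RUNX letters TGTGGT in 1 window (14.0%), and the E-box CANNTG in 6 windows (66.2%). No GATA, ETS or RUNX match shared a base with another match in these windows. A match describes the letters only and is not a binding site.

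Signal is the value that was deposited for each gene and library, a read count estimated per gene and scaled by 1 factor per library. From the step on which low values fall, the libraries held approximately 1235110 to 2471413 reads each, so a factor rested on 27.0 reads (Mecom, lowest library) to 411 reads (Meis1, highest library). Fancg itself was at 4.76 to 24.1 in the libraries labelled WT and at 4.46 to 14.5 in those labelled KO (exact permutation test, p = 0.636), so that it did not separate the labels at this depth. Of the markers of the sort, Kit was at 283 to 435 and Ly6a, which encodes Sca-1, at 4.84 to 17.4. Of the markers of mature cells, the 5 T cell markers together were at 1.45 to 7.51, the 5 B cell markers at 38.2 to 299, mostly Ebf1, and the 7 myeloid markers at 77.0 to 130, mostly Lyz2, with Ly6g at 0 in every library. Of 8 marker lists for other cell types, the 5 stromal markers alone differed in sum before adjustment, at 67.9 to 106 in WT and 62.0 to 88.2 in KO (exact permutation test, p = 0.0195). This sum was nearly all Pdgfrb, a receptor of pericytes and fibroblasts, at 64.5 to 104 and 60.0 to 87.1, and the defining stromal genes Cxcl12, Lepr, Col1a1 and Col1a2 were at or near 0, none above 2.26. WT replicate 3 and KO replicate 7 had Y-linked transcripts at 26.6 and 49.7 in sum, and the other 10 libraries at 189 to 435. Bulk RNA does not tell fewer cells of a type apart from less RNA per cell.

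No factor differed between the genotypes at an unadjusted limma p under 0.05. Of the 8887 genes tested 326 did so, 3.67%, a share so small that 0 of 10 does not set the factors apart. After adjustment over all genes tested, 0 genes (0%) passed by limma, and adjusted p was 0.9996 for each of the 10 factors. WT and KO values did not overlap for 8 genes (0.0900%), and they overlapped for all 10 factors. By sign alone 6 factors were higher and 4 lower in KO, beside 50.7% of all genes higher. The median log2 fold change (KO minus WT, on log2(signal + 1)) was 0.02 over the factors and 0.00 over all genes tested, and the median of its size was 0.13 and 0.15, respectively. The 95% confidence intervals of the 10 factors lay between -0.83 and 0.53 and were widest for Hlf and Mecom, and differences within an interval were not excluded by these libraries.

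**Figure D1:**
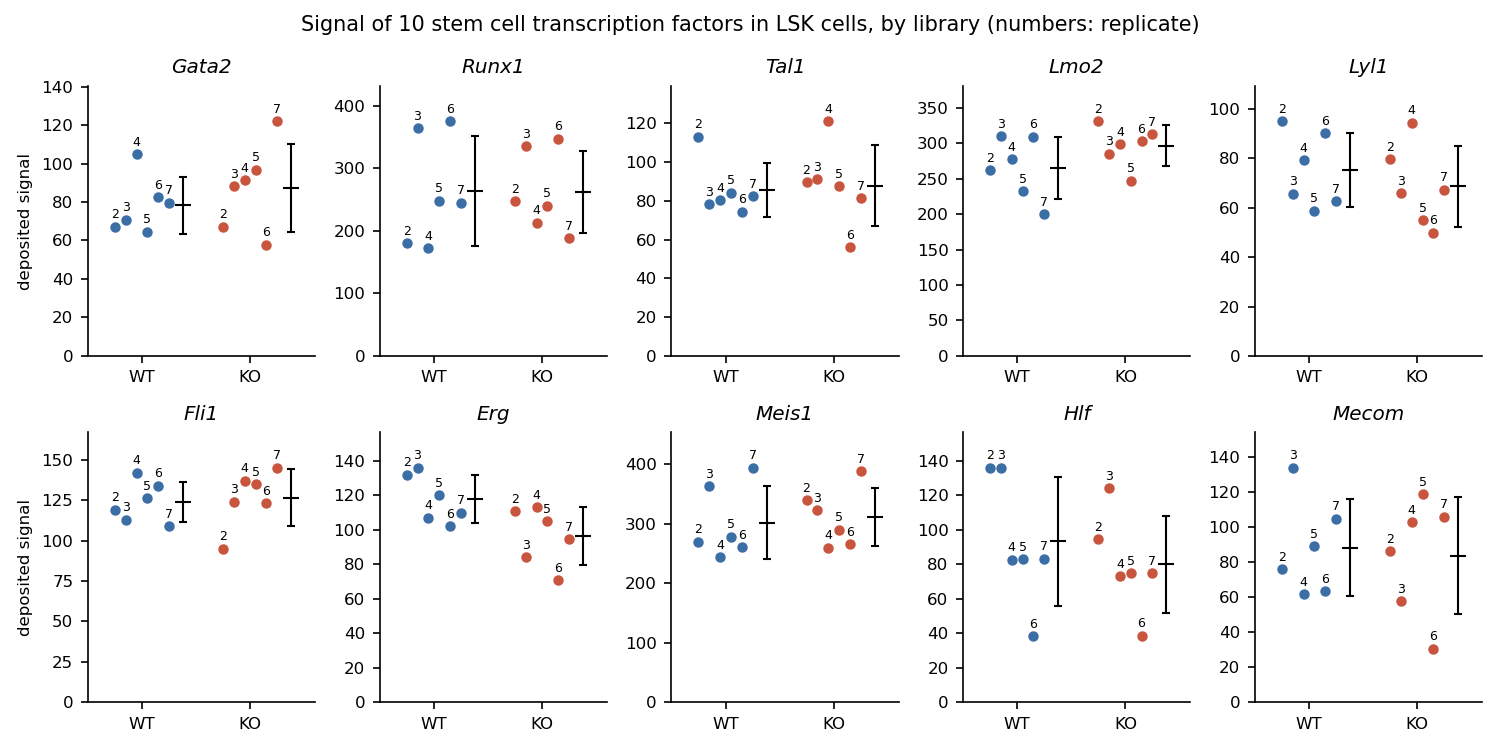
Deposited signal (vertical axis, from 0) of each factor in the 6 WT and 6 KO libraries, with the replicate number above each point and the mean and SD as a black bar. WT and KO points overlap in all 10 panels, and KO replicate 6 is the lowest point for Gata2, Tal1, Lyl1, Erg and Mecom.

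Among the factors that join in the TAL1 complex, Lmo2 had the highest signal. Lmo2 encodes an adaptor with no DNA binding of its own and lies on chromosome 2 from 103957986 to 103981878 (GRCm38, plus strand). Its signal in WT ran from 200 through a median of 269 to 310, and in KO from 247 through 301 to 331. WT replicates 5 and 7 were below every KO library and KO replicates 2 and 7 above every WT library, while the others overlapped. Means were 265 ± 43.4 in WT and 296 ± 28.8 in KO (SD, n = 6 each), and the log2 fold change was 0.17 with a 95% confidence interval of -0.12 to 0.46 (exact permutation test, p = 0.173).

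Gata2, a zinc finger factor that stem cells need to survive and proliferate, lies on chromosome 6 from 88193891 to 88207032 (plus strand). Gata2 signal ran from 64.5 through a median of 75.2 to 105 in WT and from 57.8 through 89.7 to 122 in KO. KO libraries held both the lowest value, in replicate 6, and the highest, in replicate 7. The difference amounted to a log2 fold change of 0.13 with a 95% confidence interval of -0.26 to 0.53 (exact permutation test, p = 0.504).

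Tal1 and Lyl1 encode related basic helix-loop-helix proteins that can stand in for each other in adult stem cells. Tal1, on chromosome 4 from 115056426 to 115071755 (plus strand), ran from 74.3 through 81.4 to 113 in WT and from 56.2 through 88.5 to 121 in KO. Apart from replicate 2, the WT values of Tal1 stayed within 74.3 to 84.2, and the KO values spread to both sides of them. Lyl1, on chromosome 8 from 84701457 to 84704715 (plus strand), ran from 58.9 through 72.5 to 95.1 in WT and from 49.9 through 66.7 to 94.5 in KO. Log2 fold changes were 0.02 with a 95% confidence interval of -0.35 to 0.38 for Tal1 (exact permutation test, p = 0.944) and -0.14 with an interval of -0.52 to 0.25 for Lyl1 (exact permutation test, p = 0.459). The exons of Lyl1 share 4 bases with Nfix on the opposite strand.

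Runx1 encodes the DNA-binding subunit of core-binding factor and lies on chromosome 16 from 92601466 to 92826149 (minus strand). WT values of Runx1 ran from 172 through 247 to 375 and KO values from 188 through 243 to 347. In both genotypes replicates 3 and 6 were the highest libraries, at 364 and 375 in WT and at 335 and 347 in KO. The means, 264 ± 87.7 and 262 ± 65.0 (SD, n = 6 each), differed by far less than their SDs, and the log2 fold change was 0.02 with a 95% confidence interval of -0.45 to 0.48 (exact permutation test, p = 0.946). The SD of Runx1 within genotypes was 0.42 on the log2 scale, which is 4.49 times the SD expected from counting alone, the highest ratio among the 10 factors.

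Erg and Fli1 encode ETS factors that are close relatives. Erg, which stem cells need for self-renewal, showed the lowest p of the 10 factors, and lies on chromosome 16 from 95359169 to 95586593 (minus strand). Its signal in WT replicates 2 to 7 was 132, 136, 107, 120, 102 and 110, and in KO replicates 2 to 7 it was 111, 84.1, 113, 105, 70.7 and 94.6. Thus 3 WT libraries were above every KO library and 3 KO libraries were below every WT library, while the others overlapped. Mean signal was 118 ± 13.8 in WT and 96.3 ± 16.5 in KO (SD, n = 6 each). The log2 fold change of Erg was -0.30 with a standard error of 0.15 and a 95% confidence interval of -0.61 to 0.01. Its unadjusted limma p was 0.0589, which ranked 381 of 8887 genes, and its adjusted limma p was 0.9996. The two-sided exact permutation test on Erg alone gave p = 0.0411, where the smallest possible value was 0.00216, without adjustment for the 10 factors examined. Without WT replicate 6, KO replicate 2 or KO replicate 4, the limma p was 0.0446, 0.0421 and 0.0367, without each of the other 9 libraries it was 0.0573 to 0.147, the highest without KO replicate 6, and in every fit that left out 1 library the fold change stayed between -0.35 and -0.21. With rescaled library totals it was -0.22, with a limma p of 0.269.

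Fli1, on chromosome 9 from 32422204 to 32542861 (minus strand), was the steadiest factor, with a highest value 1.52 times the lowest. It ran from 109 through 122 to 142 in WT and from 94.9 through 129 to 145 in KO. The KO values enclosed the WT values, and the log2 fold change was 0.03 with a 95% confidence interval of -0.26 to 0.31 (exact permutation test, p = 0.820). Taken within each library on signal + 1, the ratio of Erg to Fli1 had a median of 0.984 in WT, with a range of 0.754 to 1.20, and of 0.729 in KO, with a range of 0.577 to 1.16. This difference, -0.32 on the log2 scale, did not pass (exact permutation test, p = 0.117, adjusted p = 0.523 over 6 ratios). Without KO replicate 2, the highest KO ratio, it was -0.45 (exact permutation test, unadjusted p = 0.0216). Without each of the other libraries in turn, the unadjusted p of the exact permutation test was 0.0736 to 0.216.

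Meis1, a homeodomain factor that binds DNA together with HOX proteins, lies on chromosome 11 from 18879817 to 19018985 (minus strand). Meis1 ran from 244 through 274 to 394 in WT and from 260 through 306 to 388 in KO. Replicate 7 was the highest library and replicate 4 the lowest in both genotypes, and the log2 fold change was 0.05 with a 95% confidence interval of -0.28 to 0.38 (exact permutation test, p = 0.732). Of the 31-base stretches of Meis1 transcripts, 9.51% also occur in other genes, most of them in Gm37818 on the same strand, whose exons overlap those of Meis1, so reads there could be split. For the other 9 factors this share was at most 0.437%.

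Hlf encodes a bZIP factor of the PAR family and is among the most selective markers of stem cells within the LSK gate. It lies on chromosome 11 from 90336536 to 90390895 (minus strand). In WT replicates 2 to 7 its signal was 136, 136, 82.8, 83.1, 38.4 and 83.2, and in KO replicates 2 to 7 it was 94.6, 124, 73.3, 75.0, 38.7 and 74.8. Replicates 2 and 3 were high and replicate 6 was low in both genotypes, with a factor of 3.55 between the highest and the lowest library. The means were 93.2 ± 37.3 in WT and 80.0 ± 28.0 in KO (SD, n = 6 each). For Hlf the log2 fold change was -0.19 with a 95% confidence interval of -0.83 to 0.45 (exact permutation test, p = 0.580), and it was 0.00 without KO replicate 6 and -0.42 without WT replicate 6. Both replicate 6 libraries also had the highest Mpo, the myeloperoxidase gene of granulocyte and monocyte precursors, at 1513 in WT and 1650.0 in KO, against 255 to 754 in the other 10 libraries. The part of Mpo-expressing cells in the Hlf values was not tested.

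Mecom, which encodes the zinc finger factor EVI1, lies on chromosome 3 from 29951296 to 30548008 (minus strand). It had the widest range of the 10 factors, from 61.9 through 82.6 to 134 in WT and from 30.6 through 94.7 to 119 in KO, a factor of 4.39 between highest and lowest library. WT replicate 3 was the highest and KO replicate 6 the lowest, and here the same-numbered libraries did not stand together as they did for Hlf. For Mecom the log2 fold change was -0.15 with a 95% confidence interval of -0.78 to 0.48 (exact permutation test, p = 0.701), and without KO replicate 6 it turned to 0.11.

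**Figure D2:**
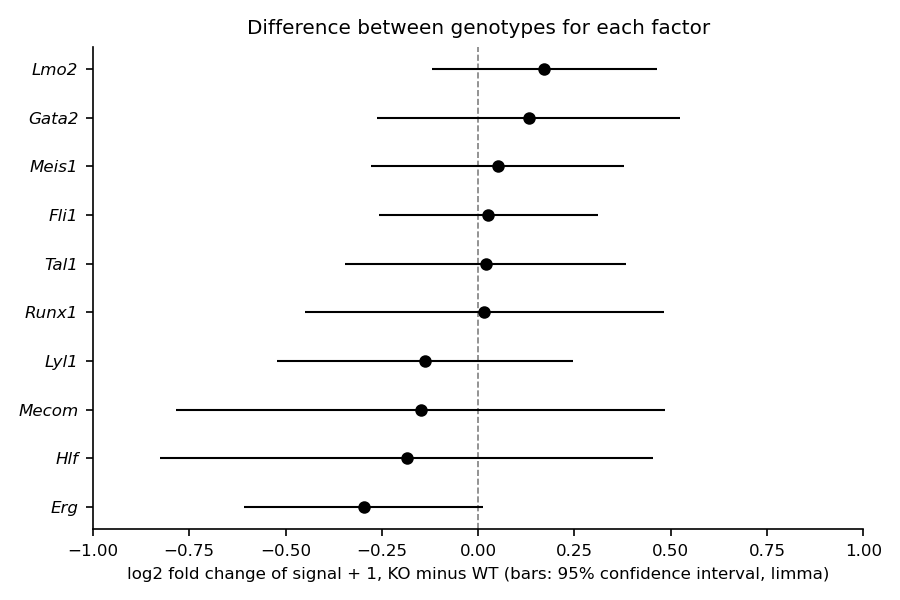
Log2 fold change of signal + 1 (KO minus WT, points) with its 95% confidence interval from limma (bars) for each factor, in order of size. All 10 intervals include 0, and the interval of Erg, -0.61 to 0.01, has the lowest upper bound.

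**Figure D3:**
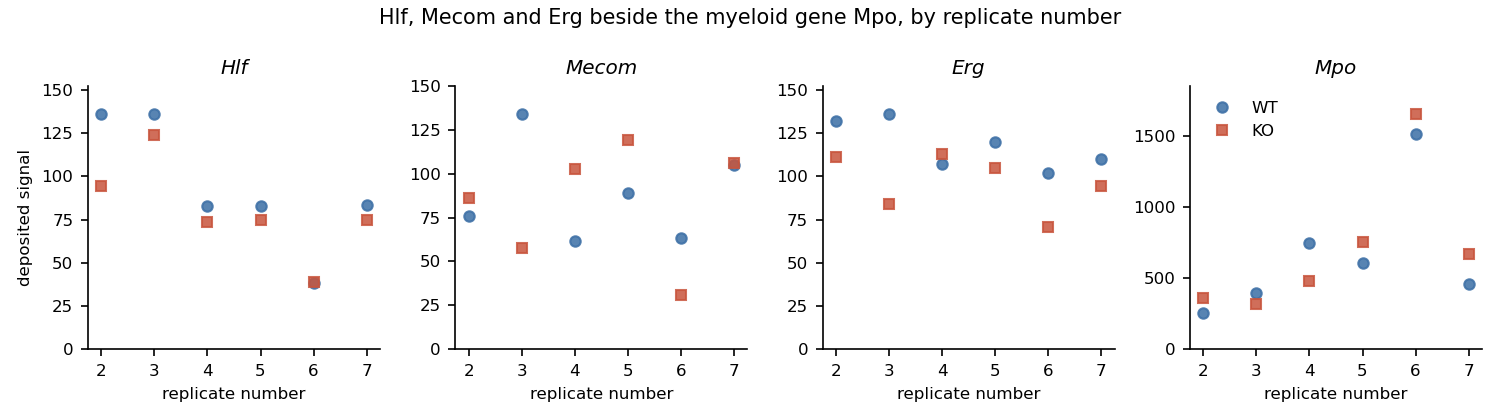
Deposited signal (vertical axes, from 0) of Hlf, Mecom, Erg and Mpo by replicate number, WT as circles and KO as squares. Both replicate 6 libraries have the lowest Hlf, 38.4 and 38.7, and the highest Mpo, while Mecom and Erg are lowest in KO replicate 6.

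KO replicate 6 was the lowest library for 5 factors (Gata2, Tal1, Lyl1, Erg and Mecom) and the highest for none. This library held approximately 1389871 reads and WT replicate 6 approximately 1441166. Only KO replicate 7, with approximately 1235110, held fewer than these. The total signal of KO replicate 6, 1576081, was the lowest of all libraries. The part of depth or scaling in these low values was not tested, and the share of all genes lowest in this library was not counted. Without both replicate 6 libraries, a comparison added after the values were seen, the log2 fold change was -0.25 for Erg, whose limma p was 0.101, 0.00 for Lyl1 and 0.03 for Mecom, and 0 factors had a limma p under 0.05.

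Ratios were taken within each library from signal + 1, so that a low gene pulls its ratio towards 1 and only ratios of well-measured genes are nearly free of the library's scaling. In addition to Erg to Fli1, other ratios between partners or alternatives were compared by exact permutation tests with adjustment over the 6 ratios computed. The ratio of Runx1 to its partner Cbfb had a median of 0.921 in WT and 1.17 in KO (p = 0.348, adjusted p = 0.523, exact permutation test). The ratios of Tal1 to Lyl1 (medians 1.18 and 1.24) and of Hlf to Mecom (0.971 and 0.884) overlapped between genotypes, with adjusted exact permutation p of 0.523 and 0.976. Gata1, the factor that takes the place of Gata2 in erythroid cells, had a signal of only 0.875 to 9.12, which rested on 1.29 to 7.61 reads per library. The ratio of Gata2 + 1 to Gata1 + 1 had a median of 19.0 in WT and 23.9 in KO (exact permutation test, adjusted p = 0.976), which understates the ratio of the signals themselves, and its direction turned with a pseudocount of 0.5.

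Levels were compared between factors as signal per kilobase of the median coding transcript, averaged over the 12 libraries. Lmo2 was highest at 196, followed by Runx1 at 132, Meis1 at 70.8, Fli1 at 59.6, Erg at 51.6 and Lyl1 at 40.0. Mecom (28.4), Gata2 (26.4), Tal1 (26.2) and Hlf (27.7) came last in order of mean log2 level. With this length all were above the median of 16.3 for the genes tested, with 96.1% of those genes lower than Lmo2 and 68.5% lower than Tal1. With the longest coding transcript Mecom was at 15.1 and Hlf at 15.4, and with the union of exons at 6.93 and 13.0. No median of the genes tested was taken for these other lengths. Of the 9 pairs of neighbours in this order, 4 differed over the libraries (exact sign-flip test, adjusted p under 0.05), namely Lmo2 and Runx1 (adjusted p = 0.00220), Runx1 and Meis1 (0.00220), Erg and Lyl1 (0.00293) and Lyl1 and Mecom (0.0319). Meis1 and Fli1 (exact sign-flip test, adjusted p = 0.0738) and Fli1 and Erg (0.0850) did not differ beyond their spread, nor did neighbours among Mecom, Gata2, Tal1 and Hlf (0.999). The order depends on the length used, since with the union of exons Runx1 moved from rank 2 to rank 6 and Lyl1 from rank 6 to rank 2, while Lmo2 was first with each length.

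**Figure D4:**
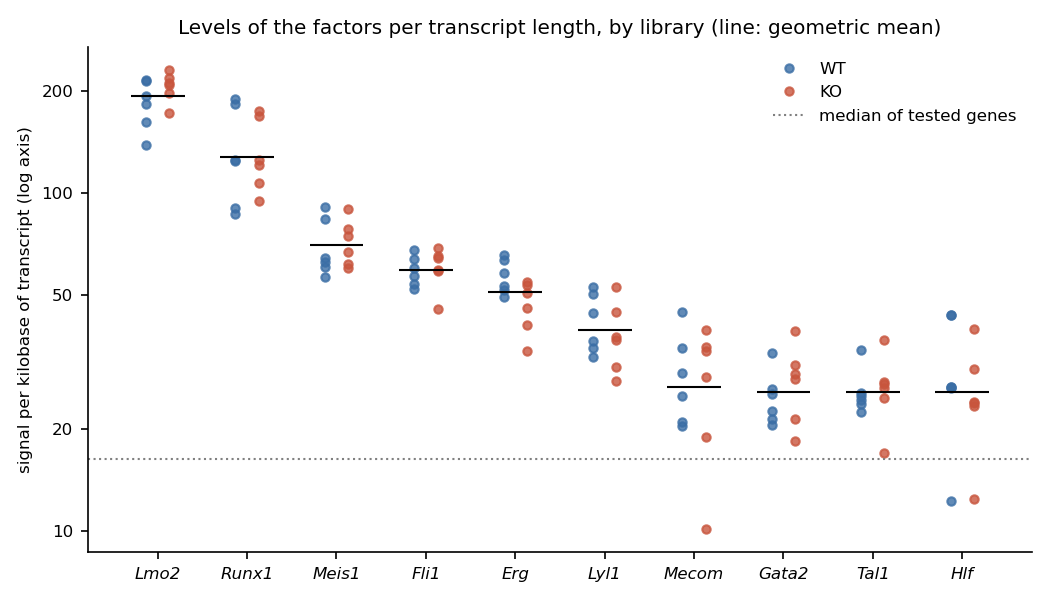
Signal per kilobase of the median coding transcript (log axis) of each factor in the 6 WT and 6 KO libraries, with the geometric mean over all 12 as a line and the median of the tested genes dotted. Lmo2 and Runx1 stand above the others, and Mecom, Gata2, Tal1 and Hlf share the lowest levels.

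Whether the factors rose and fell together between mice was examined after the genotype means were subtracted. Over the 45 pairs of factors the median Pearson r was 0.06, beside 0.01 for all pairs of tested genes. An absolute r of at least 0.5 was reached by 9 pairs, 20%, compared with 15.3% of all pairs and 19.9% of pairs among the 3119 genes whose signal averaged 50 or more. With permutation within genotype, 6 pairs had p under 0.05 and 0 had an adjusted p under 0.05.

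The highest Pearson correlation was between Erg and Mecom, with r = 0.82 (permutation p = 0.00480, adjusted p = 0.216) and rho = 0.70 (permutation p = 0.0190, adjusted p = 0.427). Without the libraries farthest from the median of Erg, KO replicates 6 and 3, r was 0.48. Tal1 and Erg followed with r = 0.75 (permutation p = 0.0130, adjusted p = 0.292) and rho = 0.61 (permutation p = 0.050, adjusted p = 0.450), and Tal1 and Lyl1 with r = 0.68 (permutation p = 0.0240, adjusted p = 0.302) and rho = 0.45 (permutation p = 0.155, adjusted p = 0.557). For both of these pairs the farthest libraries were KO replicates 6 and 4, and r without them was 0.40 and 0.35. The 3 correlations thus rested in part on the libraries left out, among them KO replicate 6, which was low for Erg, Mecom, Tal1 and Lyl1 alike. By rank, Gata2 and Fli1 came first with rho = 0.79 (permutation p = 0.00371, adjusted p = 0.167) and r = 0.67 (permutation p = 0.0333, adjusted p = 0.302), a pair singled out after its values were seen, and r was 0.75 without KO replicates 7 and 6. The points share the size factor of their library.

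**Figure D5:**
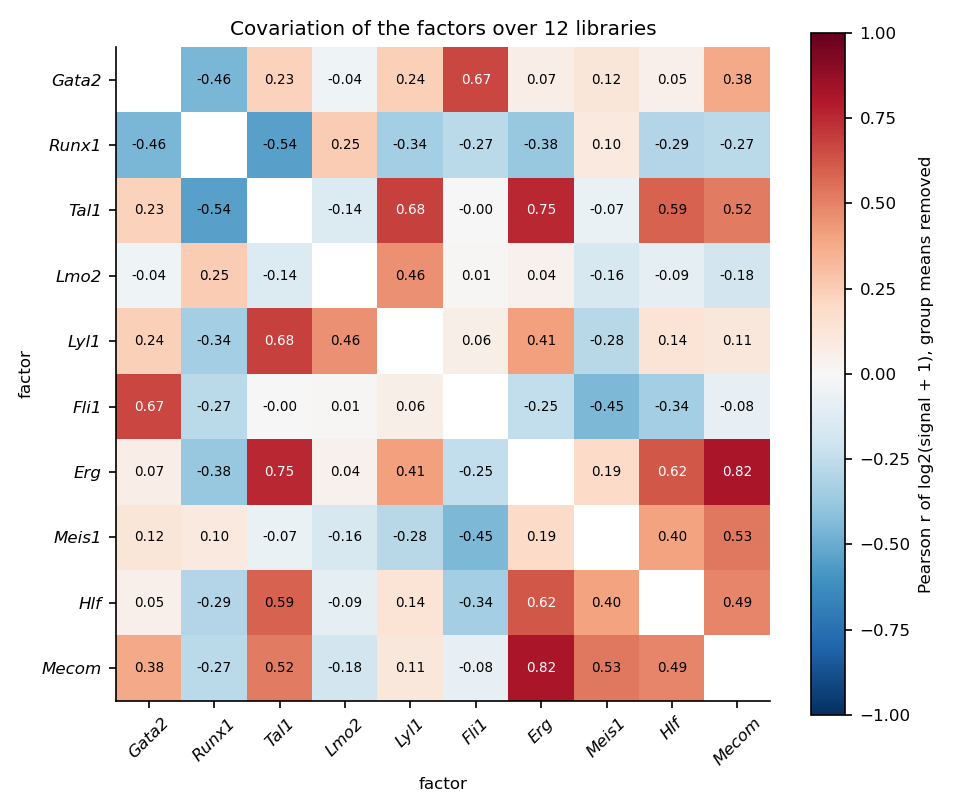
Pearson r of log2(signal + 1) between each pair of factors over 12 libraries after removal of the genotype means, on a colour scale from -1 (blue) to 1 (red). Erg with Mecom (0.82), Tal1 with Erg (0.75) and Tal1 with Lyl1 (0.68) are the highest, and most other cells are pale.

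Genes that work with these factors were counted in the same fit, beside the 3.67% of all genes with an unadjusted limma p under 0.05. Of 26 partners, which include LDB1, the E proteins, core-binding factor beta and corepressors, 21 were tested, 0 had p under 0.05, and the median log2 fold change was -0.11, with 14 lower and 7 higher by sign. Sin3a, a corepressor scaffold, and Cbfb were the most abundant, with log2 fold changes of -0.22 (exact permutation test, p = 0.50) and -0.23 (exact permutation test, p = 0.0455), while the limma p of Cbfb was 0.0885. Cbfb had a limma p of 0.0405 without WT replicate 3, and of 0.0628 to 0.185 without each of the other libraries. With rescaled library totals its log2 fold change was -0.15, with a limma p of 0.536.

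Of 22 paralogs, 10 were tested, 7 were lower and 3 higher by sign, and 1 of the 10 had p under 0.05. This was Ets1, an ETS factor best known from lymphocytes, which ran from 14.0 through 21.3 to 40.4 in WT and from 4.17 through 11.8 to 29.2 in KO. In KO, 5 of 6 libraries were below every WT library. The log2 fold change of Ets1 was -1.003 with a standard error of 0.39 (limma, p = 0.0216, adjusted p = 0.9996; exact permutation test, p = 0.0541). Its values rested on 2.60 to 37.3 reads, and limma p was 0.0573, 0.0534 and 0.0544 without WT replicate 2, KO replicate 6 and KO replicate 7. The 5 B cell markers, in sum, had medians of 164 in WT and 137 in KO (exact permutation test, p = 0.838). Elf1 and Elf2, the most abundant paralogs, had log2 fold changes of -0.11 (exact permutation test, p = 0.206) and -0.27 (exact permutation test, p = 0.132), and Tal2 and Fev were at 0 in every library.

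Other stem and progenitor factors, 16 of 17 tested, included 0 with p under 0.05 and had a median of -0.02. Myb, needed for progenitor expansion, and Myc were the most abundant, at 0.08 (exact permutation test, p = 0.524) and 0.07 (exact permutation test, p = 0.543) on the log2 fold change scale.

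Known targets of the factors were tested for 14 of 15 genes, of which 1 was higher and 1 lower at p under 0.05, with a median of 0.02. Some of these targets are also counted among the partners or the other factors above, so the lists overlap. Itga2b encodes integrin CD41 of megakaryocytes and some stem cells, and ran from 11.8 through 14.6 to 19.2 in WT and from 19.2 through 22.2 to 45.4 in KO. Of the KO libraries, 5 were above every WT library, and the 2 groups met at 19.2. Its log2 fold change was 0.72 with a standard error of 0.23 (limma, p = 0.00597, adjusted p = 0.9996; exact permutation test, p = 0.00433). The unadjusted limma p of Itga2b stayed under 0.05 in all 22 alternative settings run, which reuse the same libraries. Its values rested on only 9.89 to 28.3 reads. The 6 megakaryocyte markers, which include Itga2b, summed to 38.7 to 89.9 in WT and 40.6 to 264 in KO (exact permutation test, p = 0.186). The sum of 264 was that of KO replicate 7, where Vwf alone was at 177, and the next highest KO sum was 106. The part of these markers in the result for Itga2b was not tested.

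Flt3, the receptor of multipotent progenitors that lean to the lymphoid side, ran from 363 through 464 to 646 in WT and from 178 through 351 to 523 in KO. The groups overlapped, with 3 KO libraries below every WT library. The log2 fold change was -0.51 with a standard error of 0.23 (limma, p = 0.0423, adjusted p = 0.9996; exact permutation test, p = 0.0628), and it was -0.32 without KO replicate 6, where limma p was 0.108. In 8 of the 12 fits that left out 1 library, limma p for Flt3 was above 0.05. Cd34, the most abundant target, was at 646 ± 43.2 in WT and 595 ± 56.5 in KO (SD, n = 6 each) with a log2 fold change of -0.12 (exact permutation test, p = 0.104).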

How the data were processed

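LSK cells of 12 mice were sequenced, 1 library per mouse, after mature cells had been depleted and LSK cells sorted, and libraries were made from enriched mRNA. The authors deposited 1 signal value per gene and library, which by its name and values is a read count estimated per gene and scaled by 1 factor per library. The submitters' processing notes name kallisto, and its version and the mouse genome build and annotation are not given in the sources used here. Every column was matched to a library by its label, and 0 columns were left unused. Values were used as deposited. Whole reads could not be recovered, since only 10.4% to 11.4% of values fell on whole multiples of what 1 read is worth, within a tolerance of 0.001, so no test made for counts was run, and approximate reads cover counting error only.

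Genes whose signal averaged 10 or more were tested on log2(signal + 1), which understates the change of low genes, with limma 3.58.1 (no covariates, trended empirical Bayes, two-sided p adjusted over 8887 genes by Benjamini-Hochberg) in R 4.3.3. Single genes and ratios were tested with two-sided exact permutation tests over 924 divisions of the libraries, neighbouring levels with exact sign-flip tests, and correlations with 100000 permutations (Python 3.11.15, scipy 1.17.1). The limma step was tested on simulated data. Positions, transcript lengths and overlaps came from GENCODE on GRCm38, in which all 35999 gene names were found, and promoters from RefSeq. The named genes are the 10 factors, the genes of each list with an unadjusted limma p under 0.05, the 2 most abundant of each list, and the 3 factor pairs with the highest absolute r; Gata1, Cbfb, Tal2, Fev, Mpo and individual markers of cell types were named beside them. The result for 1 of the 6 ratios is not reported here. Members, lists and tests were chosen with earlier results of these data known. Alternatives were other pseudocounts, filters, scalings and transcript lengths, limma without trend, a replicate block, and omission of libraries.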

Additional observations from a re-analysis of the deposited data

Results flagged for a closer look

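Among 34 groups of 6 libraries examined for a value far from the rest of its group (Dixon's criterion at 95%), 2 held such a value, beside 1.70 expected by chance. Tal1 was at 113 in WT replicate 2, while the other 5 WT libraries lay between 74.3 and 84.2. Fancg was at 24.1 in WT replicate 7, with the other WT libraries between 4.76 and 9.40.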

How the results depend on the processing

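The number of genes with an unadjusted limma p under 0.05, 326 as reported, was 836 without a filter on low values and 91 with a mean signal of at least 50, since other numbers of genes were tested, and 275 to 383 when each library was left out in turn. In no setting did a gene pass after adjustment. The count of factors with p under 0.05, 0 as reported, was 1 without the filter, 1 with the filter at 50 and 0 to 1 when each library was left out, in each case Erg, at a limma p of 0.0428 and 0.0468 under the 2 filters. Erg was lower in KO in every setting tried. Same-numbered libraries correlated at 0.09 to 0.36 in their deviations from the genotype means (4 of 6 above 0.1), and 9 of 12 libraries correlated best with their own number, a hint from the data and not from the design, so the numbers were not taken to pair the samples. With the replicate block 476 genes and 1 factor, Erg (limma, adjusted p = 0.889, unadjusted 0.0458), had an unadjusted p under 0.05. Hlf and Erg were each lower in KO in 5 of 6 same-numbered comparisons. For each of them the exact sign-flip test gave p = 0.0625, where the smallest possible value was 0.0312.

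Some directions turned, all of differences without a call. The log2 fold change of Tal1 was -0.0020 with quantile normalization, and that of Fli1 was -0.0405 and the difference of the Hlf to Mecom ratio 0.0591 when WT replicate 3 and KO replicate 7, both low in Y-linked transcripts, were left out. Without both replicate 6 libraries, an alternative chosen after seeing the data, Lyl1 was at 0.0030 and Mecom at 0.0268. With a pseudocount of 0.5 the Gata2 to Gata1 difference was -0.0145. When each library was left out in turn, the log2 values ran from -0.0930 to 0.1307 for Runx1, -0.0789 to 0.1390 for Tal1, -0.0150 to 0.1057 for Fli1, -0.0154 to 0.1328 for Meis1, -0.4153 to 0.0039 for Hlf, -0.2766 to 0.1094 for Mecom, -0.1000 to 0.1662 for Gata2 to Gata1 and -0.2574 to 0.1260 for Hlf to Mecom. The cause was not tested. The number of factor pairs with an adjusted correlation p under 0.05 was 0 in every setting, and 3 or 4 neighbouring levels differed with the other transcript lengths.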
